A study of Homo sapiens with 12 samples.

Results

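The RB and E2F family genes measured here are RB1, RBL1, RBL2, E2F1, E2F2, E2F3, E2F4, E2F5, E2F7 and E2F8. They were found by gene symbol, and all 10 were present among the 58037 genes of the count table. All 10 also passed the filter on low counts in both cell lines. The study asked how silencing of MUC1, which encodes a transmembrane mucin, alters gene expression in androgen-independent prostate cancer cells. DU-145 cells came from a human prostate carcinoma. LNCaP-AI cells were selected from the LNCaP derivative C4-2B by long culture in androgen-depleted medium. Both lines carried a doxycycline (DOX)-inducible MUC1 shRNA (tet-MUC1shRNA), and treatment was either vehicle or DOX at 500 ng/ml, given over 7 days. RNA-seq was performed on 3 samples in each of the 4 groups. The sample labels name the vehicle samples shCTL and the DOX samples shMUC1, whereas the design text describes a single vector with or without DOX. Control-shRNA cells given DOX are not part of these comparisons, and what DOX does by itself cannot be told apart from what the shRNA does. The labels describe cells cultured in triplicate, and the study's methods speak in general of repeats on separate samples without saying how these cultures were kept apart. The p-values measure the spread between these samples.

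The E2F transcription factors bind DNA together with a DP partner and control genes needed for DNA synthesis and cell division. E2F1, E2F2 and E2F3 are known as activators. They are held in check by the retinoblastoma protein, encoded by RB1, until cyclin-dependent kinases phosphorylate it. E2F4 and E2F5 act mainly as repressors in quiescent cells, together with the pocket proteins p107 (RBL1) and p130 (RBL2). E2F7 and E2F8 are atypical members that repress without a DP partner or a pocket protein, and they are themselves made late in G1 and in S phase as part of a feedback loop. DU-145 cells are known to lack functional RB protein, which transcript counts do not show.

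MUC1 was read first as a check of the labels. Its counts in DU-145 cells were 74, 60 and 59 under vehicle, against 3 in all DOX samples. Those in LNCaP-AI cells were 36, 25 and 52 under vehicle, against 8, 6 and 3 under DOX. The labels and the MUC1 counts therefore went the same way in all 12 samples. Total counts ran from 10423437 to 13544153 in DU-145 samples and from 16569613 to 26961777 in LNCaP-AI samples. The LNCaP-AI samples fell into a division that did not follow the treatment. On the first principal component, which held 82.5% of their variance, vehicle 1, DOX 2 and DOX 3 lay apart from vehicle 2, vehicle 3 and DOX 1. The basal cell keratin KRT5 had 789, 1434 and 935 counts in vehicle 2, vehicle 3 and DOX 1, and 0 or 1 in the other three samples. A list of 5 basal and mesenchymal markers held KRT5, TP63, VIM, CAV1 and CD44. Its summed CPM (counts scaled to the library total) was 235.5 to 248.4 on the side with KRT5 and 27.4 to 56.9 on the other. KRT5, TP63, CAV1 and CD44 had 0 to 6 counts in each sample of that other side, so the sum there was mostly VIM. VIM did not follow the division. Its LNCaP-AI counts were 605, 509 and 874 with vehicle and 1280, 993 and 990 with DOX. It was called higher with DOX in that line (edgeR, log2 fold change 0.93, adjusted p = 0.0123). Neither the labels nor the methods name a batch that matches this division. Values within each side are therefore given beside the LNCaP-AI results of RBL1, E2F1, E2F4, E2F7 and E2F8, and not for the other genes. The lines themselves were distinct, since the prostate homeobox gene HOXB13 had 0 counts throughout DU-145 and 4263 to 8525 in LNCaP-AI samples. Of 7 luminal markers, 4 were called higher with DOX in LNCaP-AI cells and 0 lower, and their summed level was 2011 to 3094 CPM with vehicle and 3109 to 4348 with DOX. The part of these markers in the results below was not tested.

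Several family genes are themselves targets of E2F factors, and the bases just before their starts show where such a site could lie. The 120 bases before the annotated start of RBL1, E2F1, E2F3 and E2F7 are printed here in the direction of transcription, from RefSeq on GRCh38.p14. RBL1 is shown because its transcript fell furthest in both lines, E2F1 and E2F3 because these activators moved differently, and E2F7 because it fell although no match was found. Capitals mark matches to the E2F sequences TTTCCCGC, TTTCGCGC, TTTGCCGC and TTTGGCGC, searched on both strands.
RBL1 (chr20:37095998-37096117, minus strand): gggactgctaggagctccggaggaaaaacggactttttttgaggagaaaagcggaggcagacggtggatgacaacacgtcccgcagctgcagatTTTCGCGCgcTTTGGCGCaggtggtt
E2F1 (chr20:33686386-33686505, minus strand): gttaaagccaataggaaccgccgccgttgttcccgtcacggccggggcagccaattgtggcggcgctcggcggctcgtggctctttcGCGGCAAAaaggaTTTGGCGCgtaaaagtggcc
E2F3 (chr6:20401759-20401878, plus strand): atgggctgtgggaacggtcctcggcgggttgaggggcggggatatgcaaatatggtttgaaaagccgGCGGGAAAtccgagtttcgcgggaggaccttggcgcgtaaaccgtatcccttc
E2F7 (chr12:77065570-77065689, minus strand): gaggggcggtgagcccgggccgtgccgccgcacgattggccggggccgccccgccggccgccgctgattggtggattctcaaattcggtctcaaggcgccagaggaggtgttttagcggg

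Promoter windows of 250 bases before to 50 bases after a start were found for 8 of the 10 genes, in 10 entries. E2F5 and E2F8 had no entry. The single RB1 entry begins 172706 bases inside the gene and was not read as its main promoter. An E2F match was present in 4 genes. RBL1 had matches at −26 to −19 and at −16 to −9, both reading in the direction of transcription. E2F1 had one at −33 to −26 against the direction of transcription and one at −20 to −13. E2F2 had one at −42 to −35, and E2F3 had one at −53 to −46 against that direction. Of 35116 promoter windows of the same length, 3.31% held a match. The CHR letters TTTGAA, a mark of genes repressed by the DREAM complex, were present at −65 to −60 in the first E2F3 entry and at 24 to 29 in the first RBL2 entry, and 15.2% of all windows held them. The E-box CACGTG, which reads the same on both strands and is bound by MYC, lay at −80 to −75 in the second E2F3 entry, and 7.26% of all windows held it. None of these E2F matches overlapped the CHR or E-box letters. A match is a description of the letters and not evidence of binding.

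**Figure D1:**
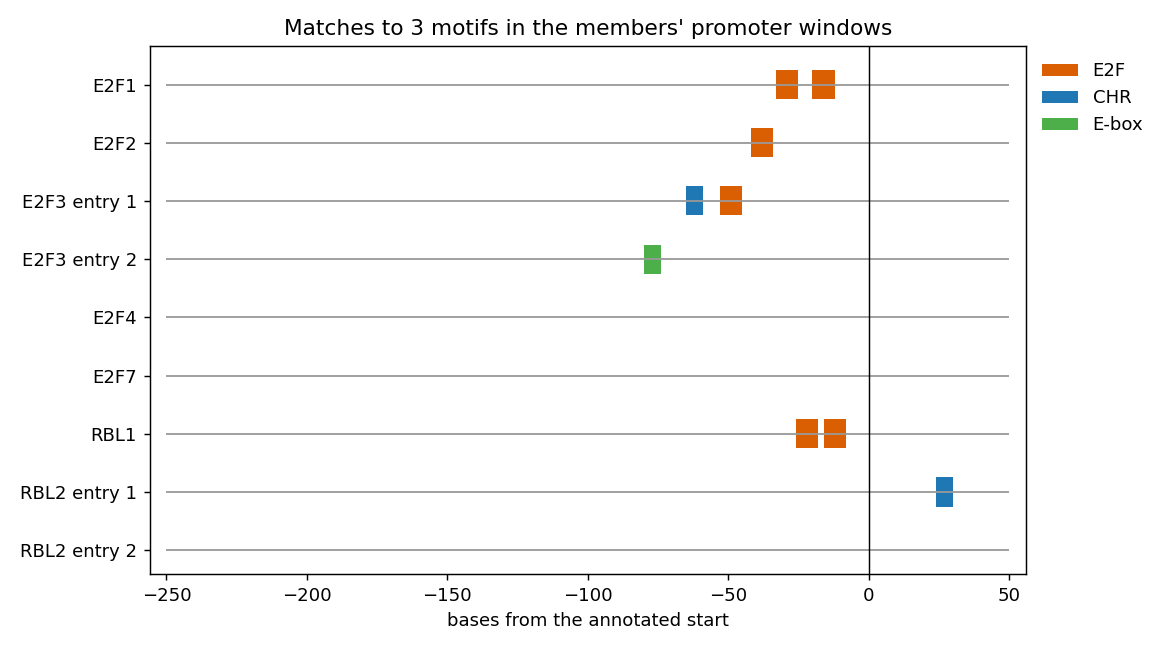
Positions of the E2F, CHR and E-box letters in the promoter windows of 7 family genes, as bases from the annotated start (black line). The E2F matches of E2F1, E2F2, E2F3 and RBL1 all lie within 53 bases before the start.

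In vehicle-treated cells, the transcripts were compared per kb of exon, as CPM per kb. E2F4 (20.7 ± 0.93, SD, n = 3), E2F1 (18.8 ± 0.34) and RB1 (17.4 ± 2.1) were highest in DU-145 cells. E2F3 followed at 13.5, RBL1 at 10.2, RBL2 at 6.93, E2F8 at 6.55, E2F7 at 4.61 and E2F5 at 2.10. E2F2 was lowest at 0.186. In LNCaP-AI cells E2F1 was highest at 27.2 ± 3.8 (SD, n = 3), followed by E2F4 at 22.7 ± 6.3 and RB1 at 14.9 ± 1.1. E2F2 was again lowest, at 0.475. Neighbours in this order whose samples overlapped were E2F1 and RB1, and RBL2 and E2F8, in DU-145 cells. In LNCaP-AI cells they were E2F1 and E2F4, E2F4 and RB1, and E2F3 and RBL2. With the length of the longest transcript in place of all exons, RB1 stood above E2F1 in DU-145 cells, and E2F4 stood above E2F1 in LNCaP-AI cells. With DOX, E2F4 was at 12.4 to 13.8 CPM per kb in DU-145 cells, below E2F1 (15.5 to 16.9), RB1 and E2F3 by mean, although the longest-transcript lengths put it above E2F1 and E2F3. RBL1 stood at 3.77 to 4.13 there, below E2F8 and RBL2. E2F5 and E2F2 kept the last places in all 4 groups under both lengths.

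DU-145 and LNCaP-AI vehicle samples differed at 65.1% of the 15628 genes tested (edgeR quasi-likelihood test, Benjamini-Hochberg adjusted p under 0.05), with 35% lower and 30.2% higher in DU-145. Among the family, 4 of 10 passed as lower in DU-145 and 0 as higher, also at an unadjusted p under 0.05 apart from E2F3 (log2 difference 0.20, unadjusted p = 0.0456). DESeq2 called 1 higher, RB1 (adjusted p = 0.0487). The share called lower is close to the background. CPM in this comparison are on the scale of the vehicle samples alone. RBL2 averaged 57.7 ± 2.0 CPM in DU-145 and 95.5 ± 5.6 in LNCaP-AI (log2 difference −0.73, SE 0.088, adjusted p = 0.000329). E2F2 differed by −1.30 (adjusted p = 0.0032), E2F1 by −0.50 (adjusted p = 0.00904) and E2F7 by −0.38 (adjusted p = 0.00916). The E2F7 difference was −0.30 without DU-145 vehicle 2 (adjusted p = 0.0505). RB1 was 115.2 ± 13 CPM in DU-145 and 95.7 ± 6.8 in LNCaP-AI and did not pass the test (adjusted p = 0.0729). It passed without DU-145 vehicle 2 (log2 difference 0.40, adjusted p = 0.0145) and without LNCaP-AI vehicle 1 (0.25, adjusted p = 0.0307). E2F4, at an adjusted p of 0.707, passed without LNCaP-AI vehicle 1 (−0.38, adjusted p = 0.00137). Line, depth and handling cannot be told apart here.

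With DOX, 6 of the 10 family genes passed the test as lower in DU-145 cells (RBL1, RBL2, E2F1, E2F4, E2F7 and E2F8), and 0 passed as higher. In that line 51.5% of 13644 genes were called in either direction, 25.3% lower and 26.3% higher. For LNCaP-AI cells 4 passed as lower (RBL1, E2F1, E2F7 and E2F8) and again 0 as higher. There 12.7% of 16030 genes were called in either direction, 5.52% lower and 7.22% higher. By edgeR at an unadjusted p under 0.05, and by DESeq2, the number of family genes higher was also 0 in both lines. The DOX samples all lay under the vehicle samples for 6 family genes in DU-145 cells and for 6 in LNCaP-AI cells, where E2F2 and RBL2 joined the 4 called genes. Over all genes this held for 27.7% and 17.6%. Log2 fold changes of the 10 genes had a median of −0.28 in DU-145 cells, against 0.000552 over all genes, and of −0.57 in LNCaP-AI cells, against −0.054. In bulk RNA, fewer cells in the S phase and less RNA per cell cannot be told apart, and this holds for each result that follows. CPM below are on the scale of each line alone.

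**Figure D2:**
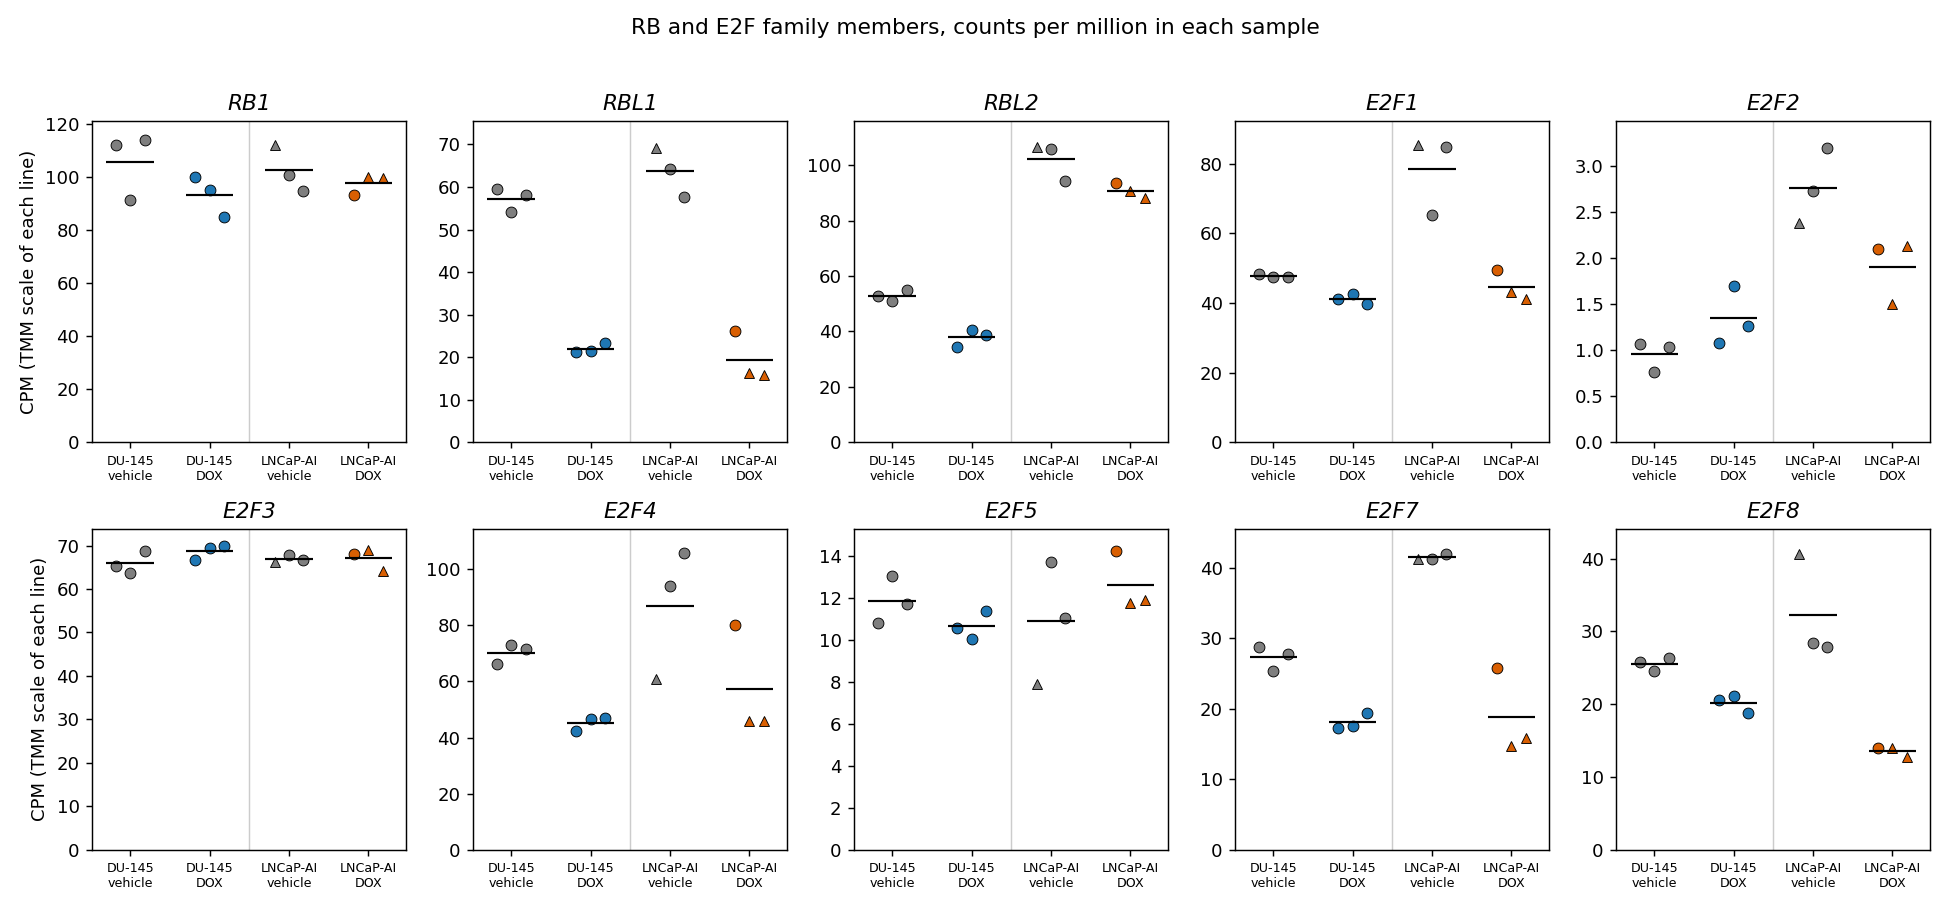
CPM of each family gene in every sample (points; black lines, group means of 3 samples), each axis starting at 0. Triangles mark LNCaP-AI vehicle 1, DOX 2 and DOX 3, the samples on one side of the division; RBL1 falls from 57.2 to 22.0 CPM in DU-145 and from 63.7 to 19.4 in LNCaP-AI, while E2F3 stays between 63.6 and 70.0 in all samples.

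RBL1, the gene of p107, fell furthest of the family in both lines. In DU-145 cells it had 59.5, 54.2 and 58.1 CPM with vehicle and 21.3, 21.4 and 23.4 with DOX. The groups lay far apart, with a fold change of −1.38 on the log2 scale (SE 0.082, adjusted p = 1.17e-10), or 2.60-fold lower, and 1.72% of all genes fell further. LNCaP-AI vehicle samples had 69.2, 64.2 and 57.6 CPM, and DOX samples 26.2, 16.2 and 15.8. Every DOX sample was under every vehicle sample, DOX 1 being the highest of them. The log2 fold change was −1.71 (SE 0.22, adjusted p = 0.0134), or 3.28-fold lower, and 0.399% of all genes fell further. Within the sides it was −2.11 for DOX 2 and DOX 3 against vehicle 1 and −1.21 for DOX 1 against vehicle 2 and vehicle 3. The LNCaP-AI call was lost without DOX 2 (adjusted p = 0.0854) and without DOX 3 (adjusted p = 0.0829), where the fold change was −1.59 and −1.58. The difference in effect between the lines did not pass its own test (−0.30, 95% interval −0.82 to 0.22, adjusted p = 0.473), except without LNCaP-AI DOX 1 (−0.58, adjusted p = 0.0115).

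RBL2, the gene of p130, which prevails in resting cells, moved less. In DU-145 cells it had 52.8, 51.0 and 55.0 CPM with vehicle and 34.5, 40.6 and 38.8 with DOX. The groups did not overlap and RBL2 fell by 0.48 on the log2 scale (SE 0.080, adjusted p = 5.94e-05). The LNCaP-AI values were 106.7, 105.7 and 94.2 CPM with vehicle and 93.5, 90.7 and 88.2 with DOX. The lowest vehicle and the highest DOX sample were nearly level, and the log2 fold change of −0.17 was not called (adjusted p = 0.219). The difference in effect between lines was 0.34 (95% interval 0.10 to 0.58, adjusted p = 0.0759). It passed with DESeq2 (adjusted p = 0.0195) and with upper-quartile normalization (adjusted p = 0.0446). RBL2 shares 609 exon bases with AKTIP on the opposite strand. AKTIP averaged 206 counts in DU-145 vehicle samples, where RBL2 averaged 638, and whether the counting used strand is not given in the sources used here.

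RB1 did not pass the test in either line. In DU-145 cells it had 112, 91.4 and 113.7 CPM with vehicle and 99.9, 94.9 and 85.0 with DOX. The groups overlapped through vehicle 2, and the log2 fold change was −0.18 (95% interval −0.36 to −0.0046, adjusted p = 0.0803). Without vehicle 2 it was −0.28 and was called (adjusted p = 0.000721), as it was with upper-quartile normalization (adjusted p = 0.0364). In LNCaP-AI cells RB1 had 111.8, 100.7 and 94.6 CPM with vehicle and 93.2, 100 and 99.4 with DOX. The log2 fold change was −0.070 (95% interval −0.29 to 0.15, adjusted p = 0.642). That interval corresponds to a change from −18.1% to 10.9%.

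The relative amounts of the pocket transcripts differed as well. Per kb of exon, RBL1 made up 29.6% ± 1.1 (SD, n = 3) of the summed RB1, RBL1 and RBL2 level in DU-145 vehicle samples and 16.2% ± 1.5 with DOX. In LNCaP-AI cells its share was 27.2% ± 0.35 with vehicle and 10.9% ± 3.0 with DOX. The share of RB1 was 50.3% ± 2.0 and 63.3% ± 3.1 in DU-145 cells, and 40.6% ± 0.83 and 51.2% ± 3.2 in LNCaP-AI cells. The vehicle and DOX samples did not overlap for either share in either line. RBL2 made up 20.1% and 20.5% in DU-145 cells, with overlapping samples, and 32.2% and 37.8% in LNCaP-AI cells. No test was run on these shares, since the genes were chosen with results known.

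**Figure D3:**
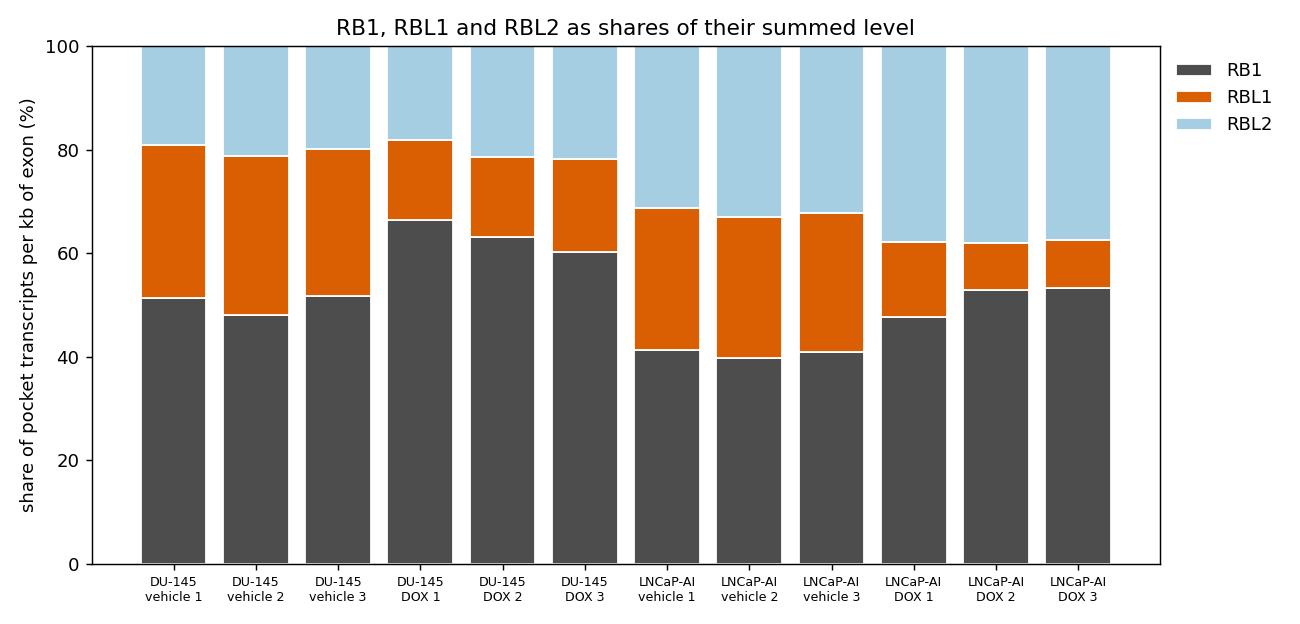
Share of RB1, RBL1 and RBL2 in their summed level, in percent of CPM per kb of exon, one bar for each sample. The RBL1 part is 28.5% to 30.7% in DU-145 vehicle samples and 15.3% to 17.9% with DOX, and 26.9% to 27.6% in LNCaP-AI vehicle samples and 9.15% to 14.5% with DOX.

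The 3 activators did not move together. E2F1 had 48.3, 47.4 and 47.5 CPM in DU-145 vehicle samples and 41.2, 42.7 and 39.8 with DOX. The shift was small but wider than the spread between samples, at −0.21 on the log2 scale (SE 0.074, adjusted p = 0.0219). The call was lost without DOX 1 (adjusted p = 0.0556), without DOX 3 (adjusted p = 0.0915) and with no filter on low counts (adjusted p = 0.0675). In LNCaP-AI cells E2F1 had 85.4, 65.2 and 84.7 CPM with vehicle and 49.5, 43.2 and 41.0 with DOX. All DOX samples lay below the lowest vehicle sample, and E2F1 fell by 0.82 on the log2 scale (SE 0.14, adjusted p = 0.0213). Within the sides the fold change was −1.02 and −0.59. The call was lost without vehicle 3 (adjusted p = 0.0506), DOX 2 (adjusted p = 0.111) or DOX 3 (adjusted p = 0.111). The fall was larger in LNCaP-AI than in DU-145 cells (difference −0.57, SE 0.15, adjusted p = 0.0404), in a comparison where 9.18% of 16800 genes were called, 3.76% lower and 5.43% higher. That difference passed in 3 of the 12 fits that left out a sample. It missed in the 9 fits without any DU-145 sample in turn or without LNCaP-AI vehicle 3, DOX 2 or DOX 3, where the adjusted p ran from 0.0697 to 0.111.

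E2F3 had the smallest fold change of the 10 genes in both lines. It had 65.4, 63.6 and 68.7 CPM in DU-145 vehicle samples and 66.7, 69.4 and 70.0 with DOX. The LNCaP-AI samples had 66.1, 67.9 and 66.8 CPM with vehicle and 68.0, 68.9 and 64.2 with DOX. The vehicle and DOX samples overlapped in both lines. The 95% interval of its change was −5.78% to 15.4% in DU-145 cells (adjusted p = 0.498) and −11.4% to 13.4% in LNCaP-AI cells (adjusted p = 0.982). The promoters printed above for E2F3, E2F1 and RBL1 all held an E2F match, as did that of E2F2, while the second E2F3 entry held 0. Counts per gene do not show which start was used. The part of these letters in the changes was not tested.

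E2F2, the third activator, was low in DU-145 cells, at 14, 8 and 13 counts with vehicle and 12, 23 and 15 with DOX. In CPM this was 0.763 to 1.073 with vehicle and 1.074 to 1.70 with DOX. The DOX samples thus all lay above the vehicle samples, but the nearest were almost level. The change was not called (log2 fold change 0.49, 95% interval −0.20 to 1.19, adjusted p = 0.23). LNCaP-AI cells had 2.38, 2.73 and 3.20 CPM with vehicle and 2.10, 1.50 and 2.13 with DOX. The fold change of −0.54 was not called (95% interval −1.09 to 0.018, adjusted p = 0.172). The wide intervals leave the size and, in DU-145 cells, the direction of any change of E2F2 unsettled.

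Of the pocket-dependent repressors, E2F4 fell in DU-145 cells. It had 66.1, 72.8 and 71.7 CPM with vehicle and 42.1, 46.7 and 46.8 with DOX. The groups were well separated, at −0.63 on the log2 scale (SE 0.076, adjusted p = 1.17e-06). With all 12 samples in one fit the DU-145 calls of E2F4 (adjusted p = 0.0754), E2F8 (adjusted p = 0.0786) and E2F1 (adjusted p = 0.168) were lost. In LNCaP-AI cells E2F4 had 60.9, 94.1 and 105.7 CPM with vehicle and 80.1, 45.7 and 46.0 with DOX. The groups overlapped, because vehicle 1 lay below DOX 1, and the fold change of −0.60 was not called (SE 0.30, adjusted p = 0.236). The samples split by the side of the division instead, and within the sides the difference was −0.41 and −0.32. With the side as a covariate it was −0.36 (adjusted p = 0.00145), although the side was read from the same counts.

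E2F5 was not called in either line. It had 10.8, 13.1 and 11.7 CPM in DU-145 vehicle samples and 10.6, 10.1 and 11.4 with DOX (log2 fold change −0.15, adjusted p = 0.334). LNCaP-AI cells had 7.91, 13.7 and 11.0 CPM with vehicle and 14.2, 11.8 and 11.9 with DOX (0.22, adjusted p = 0.568). With the side as a covariate it was 0.38 (adjusted p = 0.0258). E2F5 is uncertain, since 997 of its exon bases lie opposite RBIS, which had about as many counts (143.7 against 141.7 in DU-145 vehicle samples, as means).

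Both atypical repressors fell in both lines. E2F7 had 28.8, 25.4 and 27.8 CPM in DU-145 vehicle samples and 17.3, 17.5 and 19.4 with DOX. The DOX samples were all lower, at −0.60 on the log2 scale (SE 0.095, adjusted p = 3.11e-05). In LNCaP-AI cells E2F7 had 41.2, 41.3 and 42.0 CPM with vehicle and 25.7, 14.8 and 15.8 with DOX. The vehicle samples were nearly equal and DOX 1 was the highest of the DOX samples, with a log2 fold change of −1.14 (SE 0.22, adjusted p = 0.0276). Within the sides it was −1.43 and −0.69. The call was lost without vehicle 2 (adjusted p = 0.0611), vehicle 3 (adjusted p = 0.062), DOX 2 (adjusted p = 0.115) or DOX 3 (adjusted p = 0.124). The lines differed by −0.51 (95% interval −1.06 to 0.039, adjusted p = 0.231), and by −0.81 without LNCaP-AI DOX 1 (adjusted p = 0.00278).

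E2F8 had 25.7, 24.5 and 26.3 CPM in DU-145 vehicle samples and 20.6, 21.1 and 18.8 with DOX. It fell by 0.34 on the log2 scale (SE 0.092, adjusted p = 0.00427), with no overlap. The LNCaP-AI samples had 40.6, 28.4 and 27.8 CPM with vehicle and 14.0, 13.9 and 12.8 with DOX. Here vehicle 1 was the high sample, while the DOX samples on both sides of the division were alike. The log2 fold change was −1.25 (SE 0.17, adjusted p = 0.015), and within the sides it was −1.60 and −0.996. The call was lost without DOX 2 (adjusted p = 0.0934) and without DOX 3 (adjusted p = 0.0924). The fall was larger in LNCaP-AI than in DU-145 cells by 0.87 on the log2 scale (difference −0.87, SE 0.18, adjusted p = 0.017). That difference missed the threshold without LNCaP-AI DOX 3 (adjusted p = 0.0527) and passed in the other 11 such fits. The percentages of DU-145 genes that fell further than E2F7 and E2F8 were 12.5% and 23.8%, against 4.65% and 2.76% in LNCaP-AI cells.

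**Figure D4:**
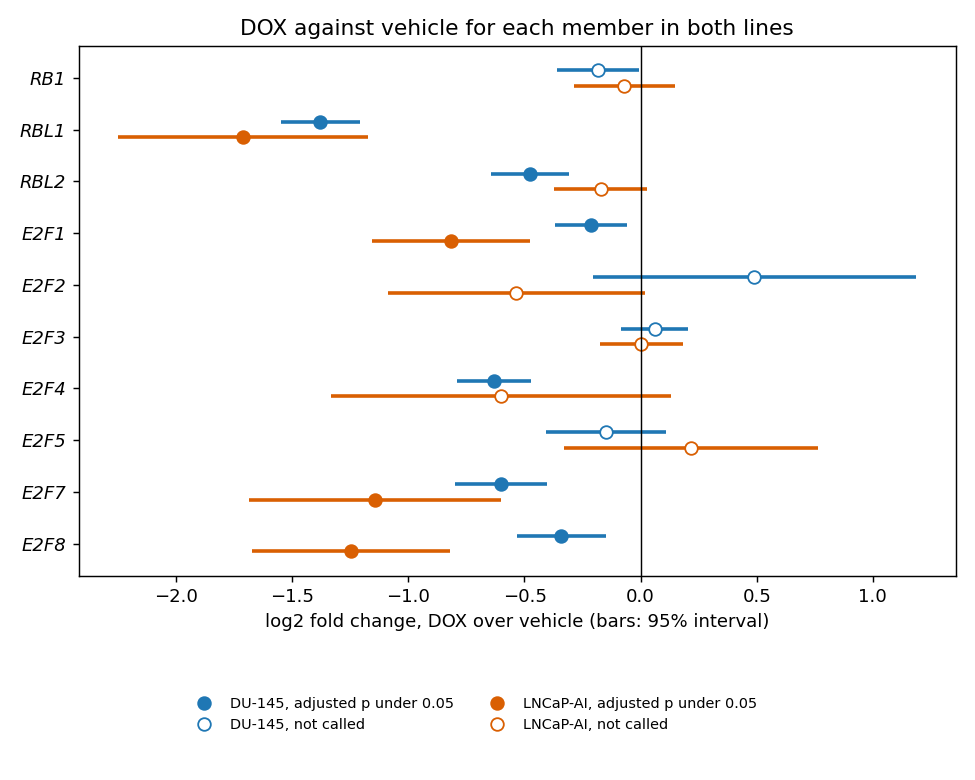
Log2 fold change of DOX over vehicle for each family gene, with 95% intervals, in DU-145 (blue) and LNCaP-AI cells (orange). Filled points passed an adjusted p of 0.05; RBL1, E2F1, E2F7 and E2F8 are filled in both lines, RBL2 and E2F4 in DU-145 cells, and RB1, E2F2, E2F3 and E2F5 in neither.

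Activator and repressor transcripts were also set against each other within each sample, as log2 ratios of summed CPM per kb. E2F1, E2F2 and E2F3 over E2F7 and E2F8 gave 1.51, 1.59 and 1.53 in DU-145 vehicle samples and 1.88, 1.91 and 1.90 with DOX. In LNCaP-AI cells the ratio was 1.46, 1.49 and 1.75 with vehicle and 2.09, 2.37 and 2.32 with DOX. The ratio was thus higher in every DOX sample of both lines than in any vehicle sample of the same line. The summed activators averaged 32.5 CPM per kb with vehicle and 30.4 with DOX in DU-145 cells, where the atypical pair averaged 11.2 and 8.18. In LNCaP-AI cells the activators averaged 39.8 and 28.4, and the atypical pair 13.4 and 5.97. Both sums were thus lower with DOX in both lines, the atypical sum by the larger factor.

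The ratio of the same activators to E2F4 and E2F5 behaved differently in the lines. It was 0.61, 0.42 and 0.51 in DU-145 vehicle samples and 1.07, 1.01 and 0.94 with DOX, with no overlap. In LNCaP-AI cells it was 1.30, 0.41 and 0.53 with vehicle and 0.37, 1.01 and 0.92 with DOX. Those values split mainly by the side of the division, and vehicle and DOX samples overlapped. Within each side the DOX samples lay below the vehicle samples. DOX 2 and DOX 3 (1.01 and 0.92) were under vehicle 1 (1.30). DOX 1 (0.37) was under vehicle 2 and vehicle 3 (0.41 and 0.53), the nearest being almost level. All ratios are descriptions without a test, and the longest-transcript lengths gave the same separation in DU-145 cells (−0.00093 to 0.18 with vehicle and 0.52 to 0.66 with DOX).

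**Figure D5:**
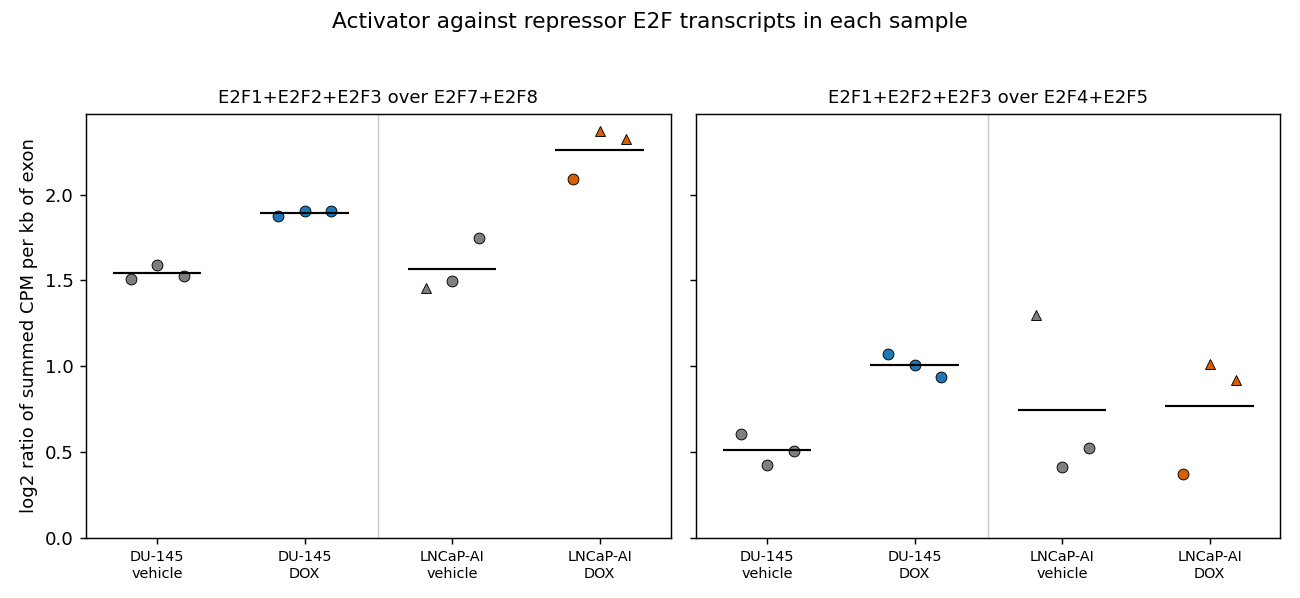
Log2 ratio of summed activator transcripts (E2F1, E2F2, E2F3) to the atypical repressors (left) and to E2F4 and E2F5 (right), from CPM per kb, one point for each sample and a black line at the group mean. The left ratio is 1.88 to 1.91 in DU-145 and 2.09 to 2.37 in LNCaP-AI DOX samples, above all vehicle samples; on the right the LNCaP-AI triangles (vehicle 1, DOX 2 and DOX 3) lie at 0.92 to 1.30 and the circles at 0.37 to 0.53.

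Across the 12 samples, with the mean of each line taken off, E2F7 and RBL1 varied most alike among the family (Pearson r = 0.964), followed by E2F1 and E2F8 (r = 0.945) and E2F1 and E2F7 (r = 0.91). E2F3 had r of −0.348 with E2F1 and −0.415 with RBL1. These values describe samples that share the treatment and, in LNCaP-AI cells, the division. Of 12984 genes tested in both lines, C22orf46P (r = 0.983), MYBL2 (r = 0.979) and DBF4B (r = 0.979) were most like E2F1. TIMELESS (r = 0.985), RFC1 (r = 0.977) and SEPTIN11 (r = 0.976) were most like E2F8, and ZNF667 (r = 0.992), CIB1 (r = 0.973) and BBS10 (r = 0.967) were most like RBL2.

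Other genes of the pathway were read from lists chosen with earlier results of these data known. Their counts stand against 26.3% of all genes called higher and 25.3% lower in DU-145 cells, and 7.22% higher and 5.52% lower in LNCaP-AI cells. In DU-145 cells the shares of the partner, kinase and inhibitor lists called in either direction were near or below these. One list held DP partners, components and partners of the DREAM and MuvB complexes, and E2F6. Of its 10 genes tested, 3 rose and 3 fell in DU-145 cells, and 1 rose and 4 fell in LNCaP-AI cells. TFDP2, a DP subunit, rose in both lines (log2 fold change 0.50, adjusted p = 3.88e-05, and 0.38, adjusted p = 0.0475). E2F6, a repressor that works without pocket proteins, and the MuvB subunit LIN52 rose in DU-145 cells (0.39 and 0.37). RBBP4, LIN9 and FOXM1 fell there (−0.26, −0.31 and −0.24). In LNCaP-AI cells the MuvB DNA-binding subunit LIN54 (−0.99), B-MYB (MYBL2, −1.11) and FOXM1 (−1.10) fell.

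Of the kinases and cyclins that phosphorylate pocket proteins, 2 of 7 rose and 2 fell in DU-145 cells, and 2 of 8 rose and 2 fell in LNCaP-AI cells. CCNE1, which encodes cyclin E1, rose in both (0.84 and 0.41), and CDK2, its kinase, fell in both (−0.26 and −0.51). CCND3 rose (0.53) and CDK6 fell (−0.39) in DU-145 cells, whereas CCND1 rose (0.70) and CCNE2 fell (−0.44) in LNCaP-AI cells. Of 6 inhibitors of these kinases, 1 rose and 1 fell in DU-145 cells and 2 rose and 1 fell in LNCaP-AI cells. CDKN1A, the gene of p21, rose in both, at 2.07 (adjusted p = 1.45e-13) and 3.52 (adjusted p = 0.00233). CDKN2C, the gene of p18, fell in both (−0.35 and −0.96), and CDKN2B, the gene of p15, rose in LNCaP-AI cells (2.60).

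Among 36 known E2F targets of the G1/S transition, 18 fell and 3 rose in DU-145 cells (median log2 fold change −0.20) and 21 fell and 1 rose in LNCaP-AI cells (median −0.80). BRCA1 (−0.78 in DU-145 and −1.32 in LNCaP-AI cells), GINS1 (−0.37 and −0.99) and CHAF1B (−0.26 and −0.84) fell in both lines. MCM4 fell in DU-145 cells (−0.54) and was at −0.92 in LNCaP-AI cells, where it missed the threshold (adjusted p = 0.0523). CDC25A (0.71), CCNE1 and MCM7 (0.17) rose in DU-145 cells, and CCNE1 rose in LNCaP-AI cells. There CDC25A (−0.64, edgeR adjusted p = 0.0443) and MCM7 (−0.67, adjusted p = 0.0197) fell instead. Another list held 30 G2/M genes taken as CHR targets, whose own promoters were not read for these letters. Of them, 29 fell and 0 rose in DU-145 cells (median −0.56), and 21 fell and 0 rose in LNCaP-AI cells (median −1.18). Those with the smallest adjusted p in either line fell in both: CCNA2 (−1.04 in DU-145 and −1.28 in LNCaP-AI cells), CENPF (−0.83 and −1.55), NDC80 (−0.71 and −1.18), HMMR (−0.61 and −1.23), CCNB2 (−0.72 and −1.14) and CENPE (−0.94 and −1.20).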

How the data were processed

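RNA-seq counts of 12 samples (4 groups of 3) were analysed. Per the labels, total RNA went into TruSeq Stranded mRNA libraries, and the submitters' processing notes name CASAVA 1.8.2, STAR 2.7.0, DESeq2 1.24.0 and GRCh38.p7. The deposited values are raw counts per gene made by the authors without normalization. The counting tool and its strand setting are not given in the sources used here. Dose and time came from the study's methods.

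Ensembl IDs, with the version removed, were matched to symbols through GENCODE release 44, whose exons gave lengths and overlaps. Genes reaching 10 counts in 3 or more samples were tested with edgeR 4.0.16 (R 4.3.3, quasi-likelihood, TMM, Benjamini-Hochberg over all genes tested, threshold 0.05), within each line, between vehicle samples of the lines, and over all 12 samples for the difference in DOX effect (LNCaP-AI minus DU-145). The scripts were tested on simulated data. No pair of replicates differed by as little as sampling noise. Counts of 3 or fewer were taken as the floor, which covers counting error only. Alternatives were DESeq2 1.42.0, other size factors, other filters, all 12 samples in one fit, a replicate block, the side of the division as a covariate, leaving out each sample, and longest transcripts. Patterns used log2 CPM with a pseudocount of 0.5.

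The members and lists were chosen with earlier results of these data known. All 10 family genes were named, with MUC1. From each other list up to 3 called genes of smallest adjusted p in each direction and line were named, and for E2F1, E2F8 and RBL2 the 3 genes most alike. Results for some genes that this rule or the marker lists include are not reported here. Same-numbered samples did not deviate together in DU-145 cells (correlations 0.127, −0.0912 and 0.0763). In LNCaP-AI cells they deviated oppositely (−0.94, −0.812 and −0.84), but there they lie on opposite sides of the division. Those LNCaP-AI values therefore cannot show whether the samples were paired. The labels do not say so either, and the numbers were not taken as pairs.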

Additional observations from a re-analysis of the deposited data

Results flagged for a closer look

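A difference in DOX effect between the lines, LNCaP-AI minus DU-145 on the log2 scale, passed its own test (edgeR interaction, adjusted p under 0.05) for 2 family genes and for several of the pathway genes named above, in a comparison where 9.18% of 16800 genes were called, 3.76% lower and 5.43% higher. E2F1 (−0.57) and E2F8 (−0.87) fell further in LNCaP-AI cells, and the E2F1 call was lost in 9 of the 12 fits that left out a sample. Of the MuvB and DREAM partners, LIN54 (−0.78), MYBL2 (−0.89) and FOXM1 (−0.82) also differed in that direction. Among cyclins and inhibitors, CCND1 (0.66), CDKN1A (1.48) and CDKN2B (2.86) had higher effects in LNCaP-AI cells and CCND3 (−0.60) a lower one. Of the named G1/S targets, CDC25A (−1.33) and MCM7 (−0.80) rose in DU-145 cells and fell in LNCaP-AI cells. GINS1 (−0.58) and CHAF1B (−0.54) fell in both lines, and further in LNCaP-AI cells.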

How the results depend on the processing

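In DU-145 cells 3583 genes were called higher and 3450 lower, and one fit of all 12 samples gave 2035 and 2048, with 3 family genes lower. In LNCaP-AI cells 1158 were called higher and 885 lower. DESeq2 gave 1897 and 1620, all 12 samples 2256 and 1677, and the side as a covariate 3013 and 3258. With that covariate 5 family genes were lower (E2F4 besides RBL1, E2F1, E2F7 and E2F8, the latter at an adjusted p of 1.79e-10 to 7.07e-07) and 1 (E2F5) higher. The replicate block gave 0 and 0, with 0 family genes; RBL1 was then at an adjusted p of 0.158. Same-numbered LNCaP-AI samples lie on opposite sides of the division, and the labels do not say whether the numbers mark pairs. For the difference between lines (912 higher and 631 lower) DESeq2 gave 997 lower, no filter 500 and 384, with 1 family gene lower, and the replicate block 30 and 22, with 0. DESeq2 and upper-quartile normalization each called 1 family gene higher there (RBL2), and DESeq2 called 1 higher between vehicle lines (RB1).

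Signs turned where values were near 0. The E2F3 fold change in LNCaP-AI cells was −0.044 with no filter. The E2F3 difference between lines was 0.00024 with DESeq2, 0.00016 with its size factors and 0.034 with upper-quartile normalization. RBL1 between vehicle lines was −0.026 with upper-quartile normalization and −0.074 with no filter. The cause was not tested in any of these.

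Leaving out 1 sample at a time gave 2986 to 3615 genes higher, 2932 to 3500 lower and 5 to 7 family genes lower in DU-145 cells. In LNCaP-AI cells it gave 1 to 1933 higher, 0 to 1605 lower and 0 to 4 family genes lower, the lowest both without DOX 2 and without DOX 3. For the difference between lines it gave 454 to 1567 higher, 283 to 2045 lower and 0 to 4 family genes lower. Between vehicle lines it gave 3 to 5 family genes lower and 0 to 1 higher. Over these fits E2F3 ran from −0.012 to 0.038 in LNCaP-AI cells and from −0.047 to 0.013 between lines. E2F4 ran from −0.26 to 0.23 between lines and from −0.38 to 0.0091 between vehicle lines, and RBL1 from −0.066 to 0.14 there.

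The 3 samples a group and the LNCaP-AI division limit these calls, E2F2 had few counts in DU-145 cells, and fits that leave out 1 of 3 samples rest on fewer samples.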
